A study of Mus musculus with 18 samples.

Results

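Highly methylated regions that collapsed in Dnmt3a R878H/+ cells were examined in whole-genome bisulfite sequencing (WGBS) of CD11b+ (myeloid) and CD4+ (T helper lineage) cells of the spleen. A region was chosen by its group means, at least 60% methylation in WT mice and at most 30% in Dnmt3a R878H/+ mice, among the autosomal regions that the authors listed for each cell type. The choice left 1138 regions of 407396 in CD11b+ cells and 1080 of 547975 in CD4+ T cells. These are 0.279% and 0.197% of the listed regions. After overlapping regions were merged, the 2218 regions made up 2040 loci, of which 175 held a chosen region from each cell type, 961 one from CD11b+ cells alone and 904 one from CD4+ cells alone.

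The groups were WT (Dnmt3a+/+) and Dnmt3a R878H/+ mice, 4 mice per genotype and cell type. The R878H allele was heterozygous and was switched on by Vav1-iCre, a recombinase expressed in blood-forming cells and their progeny, so every hematopoietic lineage of a mutant mouse could carry it. The study describes its controls as Cre-positive mice without the floxed allele or Cre-negative mice with it. The cells were enriched on magnetic columns and are mixtures, CD11b being carried by monocytes, neutrophils and macrophages and CD4 by helper and regulatory T cells. Titles of CD11b+ cells from Dnmt3a R878H/+ mice gave 6 entries for 4 mice. A running number in the titles, whose meaning the labels do not give, was higher in each mutant entry than in every WT entry of the same cell type, in CD11b+ and in CD4+ cells, and its part in the differences was not tested. The deposited tables hold the authors' mean of each group for each region. Values of single mice and read depths were not used here, so a mean carries no error and no difference between genotypes could be tested over mice. Neither table names its groups. The first was read as WT because the study's plots show WT as the more methylated genotype. Levels of WT cells at lineage genes ran with the cell type labels. Listed regions over 31 myeloid genes had a median WT mean of 77.9% in CD11b+ cells and 88.2% in CD4+ T cells, whereas those over 31 T-cell genes had 85.6% and 80%.

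DNMT3A adds methyl groups to unmethylated CpG sites, mostly during development and differentiation, and the methylation is then copied at each division by DNMT1. R878H is the mouse counterpart of the commonest DNMT3A hotspot mutation of human clonal hematopoiesis and acute myeloid leukemia, and it weakens the enzyme also in the presence of the WT protein. In most cell types nearly all CpGs outside CpG islands are methylated, and islands, promoters and enhancers in use are not. Bisulfite converts unmethylated cytosine and spares methylated cytosine, so that the share of unconverted reads at a cytosine is its methylation level.

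The sequences of 4 named regions follow, read from mm10 on the + strand with each CpG in capitals. They do not span the set and come from its dense end. Mex3a, Ddx6, Gata2 and Cyth1 held 8.93, 5.33, 7.81 and 4.35 CpG sites per 100 bases. The CD11b+ set had a median of 2.60 and an upper quartile of 3.55. Mex3a and Ddx6 are, with Hoxa5, the loci of both cell types with the largest losses, and the region upstream of Gata2 had the largest loss in CD11b+ cells. The region in Cyth1 is the opposite case, chosen in CD11b+ cells with the smallest loss in the overlapping CD4+ row. The Mex3a window (chr3:88536468-88536767) lies in coding sequence of Mex3a, the Ddx6 region (chr9:44598942-44599241) between genes, the Gata2 window (chr6:88190525-88190824) between genes and the Cyth1 region (chr11:118230071-118230185) in an intron.
Mex3a: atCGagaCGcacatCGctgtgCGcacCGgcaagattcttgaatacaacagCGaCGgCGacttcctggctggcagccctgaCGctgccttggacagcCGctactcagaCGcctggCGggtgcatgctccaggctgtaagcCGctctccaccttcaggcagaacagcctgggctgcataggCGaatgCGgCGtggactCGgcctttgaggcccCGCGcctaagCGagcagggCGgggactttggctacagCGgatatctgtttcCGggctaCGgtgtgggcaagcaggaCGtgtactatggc
Ddx6: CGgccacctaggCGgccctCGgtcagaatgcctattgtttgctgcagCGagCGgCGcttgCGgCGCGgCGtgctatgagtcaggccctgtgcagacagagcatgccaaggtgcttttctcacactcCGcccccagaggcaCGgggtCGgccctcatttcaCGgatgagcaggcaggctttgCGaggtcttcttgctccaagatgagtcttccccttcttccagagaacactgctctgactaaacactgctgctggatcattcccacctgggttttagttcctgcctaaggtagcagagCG
Gata2: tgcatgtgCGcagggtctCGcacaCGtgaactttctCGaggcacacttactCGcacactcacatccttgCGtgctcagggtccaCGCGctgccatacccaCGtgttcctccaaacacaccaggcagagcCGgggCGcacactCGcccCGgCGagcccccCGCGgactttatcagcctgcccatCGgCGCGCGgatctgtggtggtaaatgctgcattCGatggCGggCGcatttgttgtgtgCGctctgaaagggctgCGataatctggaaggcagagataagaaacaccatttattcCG
Cyth1: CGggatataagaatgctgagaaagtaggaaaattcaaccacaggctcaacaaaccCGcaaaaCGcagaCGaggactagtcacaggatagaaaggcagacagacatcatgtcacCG
The Mex3a window holds 25 CpGs in 300 bases, the Ddx6 region 16 and the Gata2 window 26. The Cyth1 region holds 5 CpGs in its whole length.

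Most collapsing regions sat close to the thresholds that chose them. In CD11b+ cells their WT means ran from 60% to 90.8% with a median of 64.5%, and their Dnmt3a R878H/+ means from 5.98% to 30% with a median of 26.3%. In CD4+ cells the WT means ran from 60% to 87.3% (median 64.4%) and the Dnmt3a R878H/+ means from 9.4% to 30% (median 26.6%). The median loss was 39.2 percentage points in CD11b+ cells (30.3 to 65.3) and 38.9 in CD4+ T cells (30.2 to 66.6). These values follow from the rule and are given as a description. All listed autosomal regions of CD11b+ cells had a median WT mean of 89.0% and those of CD4+ T cells one of 90.0%, so the regions were highly methylated by the threshold and not by the standard of these cells. Within 5 points of one of the thresholds lay 949 of the 1138 regions in CD11b+ cells (83.4%) and 926 of the 1080 in CD4+ T cells (85.7%). A WT mean of at least 75% was seen in 76 and 74 regions, and a loss of at least 50 points in 109 and 88.

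**Figure D1:**
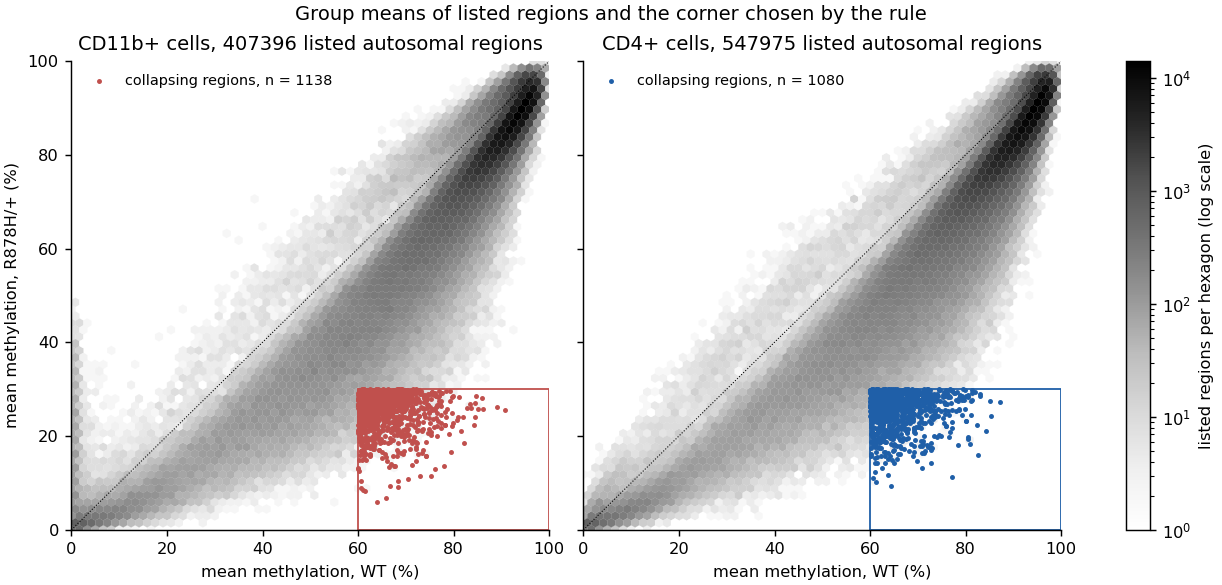
Mean methylation of each listed autosomal region in WT cells (x axis, %) and in Dnmt3a R878H/+ cells (y axis, %), CD11b+ cells on the left and CD4+ cells on the right, with the number of regions per hexagon in grey on a log scale. Coloured points in the boxed corner are the 1138 and 1080 collapsing regions, which lie at its upper left edge, next to the bulk of the regions, while the mass of listed regions sits near the upper right end of the dotted line of equal methylation.

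The rule asks for a larger loss at a higher WT level, so the share of chosen regions by WT level follows in part from it and is a description. In CD11b+ cells, 5.95% of the listed regions with a WT mean of 60 to 65% were chosen, 0.862% of those with 70 to 75%, and 1 of 128298 with 90 to 95%. In CD4+ cells the shares were 5.45% at 60 to 65% and 0.63% at 70 to 75%, and 0 of 176979 regions with 90 to 95% were chosen. The lone CD11b+ region above 90% was that of Gata2. None of the 56861 and 95942 regions with a WT mean of at least 95% was chosen. The opposite change, at most 30% in WT and at least 60% in Dnmt3a R878H/+ cells, was found in 0 autosomal regions of either cell type.

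The thresholds cut through a continuum. In CD11b+ cells, the members nearest to the WT threshold lay in Dram1, Ltbp3 and Klhdc9 with WT means of 60% and Dnmt3a R878H/+ means of 28.7%, 20.7% and 26.7%, and the nearest regions outside lay at Kiss1r, in Slc4a5 and near Pabpc6 with WT means from 59.97% to 59.98% and Dnmt3a R878H/+ means of 9.34%, 24.5% and 21.1%. Kiss1r encodes the kisspeptin receptor, and its region thus missed the set on WT level alone. At the other threshold, the regions nearest outside were in Rffl, Aqp9 and Ldhd with Dnmt3a R878H/+ means of 30.02%, and those nearest inside were near Ppp1r3b and 4930469K13Rik and in Slc24a3, at 29.98% to 30%. In CD4+ cells, Inpp5a, Limch1 and Bckdha lay just inside the WT threshold (60%), and regions near Rbpms, at Lrrc8d and near Col14a1 just outside (59.97% to 59.99%). Regions in Ror1 and Cand2 and near Zfp36l2 were the last inside the threshold on Dnmt3a R878H/+ methylation (30%), and regions in Batf and Itpr1 and at Ptn the first outside (30.01% to 30.02%). Membership near the edge turned on hundredths of a percentage point.

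Collapsing regions were short and rich in CpGs. Their median length was 405 bases in CD11b+ cells (56 to 2441) and 382 in CD4+ T cells (31 to 2367). The other listed regions with a WT mean of at least 60% had 516 and 509, and those with 60 to 70% had 541.5 and 522. The median number of CpG sites in the mm10 sequence was 10 in each collapsing set. The table counts the cytosines of both strands, and at its minimum of 10 counted cytosines lay 473 CD11b+ regions (41.6%) and 415 CD4+ regions (38.4%). Such a minimum ties length to density. The median density was 2.60 CpG sites per 100 bases in CD11b+ cells and 2.74 in CD4+ T cells. The other listed regions with a WT mean of at least 60% had 1.61 and 1.54, and those that started at the same level, 60 to 70% in WT, had 1.69 and 1.65. At least 3 CpG sites per 100 bases were found in 36.6% of the CD11b+ regions and 40.7% of the CD4+ regions, against 13.4% and 12.3% of the other regions with a WT mean of at least 60%. These differences over regions are descriptions, since regions of one genome are no replicates.

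Among regions that started at 60 to 70%, the share that collapsed rose with CpG density. In CD11b+ cells it was 0.108% below 1 CpG site per 100 bases, 3.4% at 1.5 to 2, 6.64% at 2 to 3 and 10.9% at 4 to 6. In CD4+ cells it was 0.278%, 2.54%, 5.68% and 11.4% in the same classes. Above 6 CpG sites per 100 bases it was 11% and 12%. The median loss over all regions of this WT range followed the same order up to that density. It went from 11.4 points in the sparsest class of CD11b+ cells to 18.97 points at 4 to 6 CpG sites, and was 14.8 points above 6. Over all listed autosomal regions with a WT mean of at least 60%, the median loss was instead smallest in the densest class. CD11b+ regions lost 6.425 points below 1 CpG site per 100 bases and 3.05 above 6, whereas CD4+ regions lost 7.1 and 2.75. The chosen share rose to 0.884% of these CD11b+ regions at 3 to 4 CpG sites and was 0.802% above 6. For CD4+ regions it rose to 0.801% at 4 to 6 and was 0.757% above 6. The counted share of the cytosines in a region had a median of 66.7% in the CD11b+ set and 68.2% in the regions that started at the same level, and in CD4+ T cells it was 71.4% in both.

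The base composition differed in the same direction. The median GC content was 50.8% and 50.6% in the collapsing regions and 47.4% and 47.3% in the other regions that started at 60 to 70%. The ratio of observed to expected CpGs, which measures how far a sequence has kept its CpGs against deamination, was 0.423 and 0.443 against 0.309 and 0.306. Repeats masked in the genome covered a median of 7.75% and 7.62% of the bases against 11.7% and 11.6%. A region with at least 50% of its bases in repeats was rare in the set, with 10 regions in CD11b+ cells (0.879%) and 15 in CD4+ T cells (1.39%), against 7.96% and 8.78% of the other regions with a WT mean of at least 60%.

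Promoters and CpG islands held more of the collapsing regions than of the regions at the same WT level. Within 1 kb of the start of a protein-coding transcript lay 151 regions in CD11b+ cells (13.3%) and 196 in CD4+ T cells (18.1%), against 10.1% and 11% of the other regions that started at 60 to 70% and 3.87% and 3.72% of all other regions with at least 60%. A CpG island, computed here from the sequence, was overlapped by 80 regions (7.03%) and 104 regions (9.63%), against 3.31% and 4.21% at the same WT level and 0.928% and 0.83% at 60% or more. Most of the set was nevertheless away from both. Introns held 42.9% and 34.8%, and intergenic sequence 35.1% and 39.4%. The distance to the nearest start of a protein-coding gene had a median of 15630 and 13080 bases, and 80% and 75.7% of the regions were more than 2 kb from any island. Exonic regions were the densest, with a median of 3.38 and 3.90 CpG sites per 100 bases, and intronic ones had 2.51 and 2.54.

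**Figure D2:**
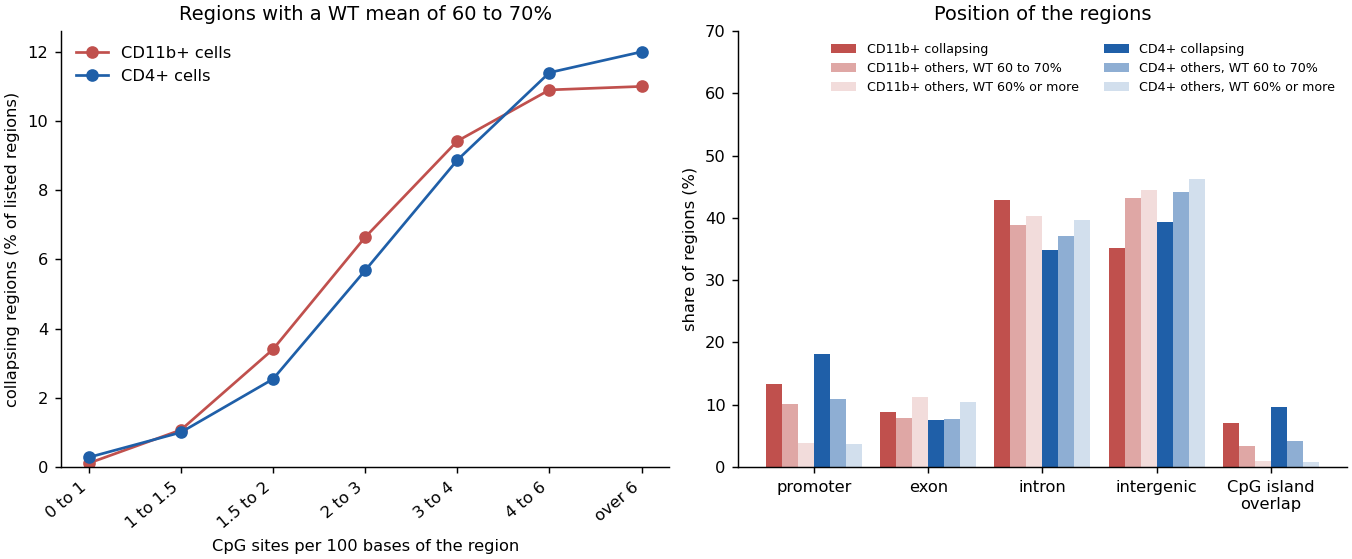
On the left, collapsing regions as a percentage of the listed autosomal regions with a WT mean of 60 to 70%, by CpG sites per 100 bases, rising from 0.108% and 0.278% in the sparsest class to 11% and 12% in the densest. On the right, the share of regions (%) at promoters, in exons, in introns, between genes and over CpG islands, for collapsing regions (full colour), other regions that started at 60 to 70% (medium) and all other regions with a WT mean of at least 60% (pale). Bars of collapsing regions stand above those of both other sets at promoters and islands.

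The loss extended past the regions in a weaker form. In CD11b+ cells, 865 of the 1138 regions had another listed region within 1 kb, and these neighbours had a median WT mean of 81.4% and a median loss of 12.7 points. In CD4+ cells 911 of the 1080 had one, with a median of 83.0% in WT and a loss of 13.3 points. Neighbours of the other regions with a WT mean of at least 60% lost 6.55 and 6.80 points. Neighbours of regions that started at 60 to 70% lost 7.54 and 7.78. Of the neighbours, 14 were themselves chosen in each cell type, 1.16% and 1.06%, against 0.358% and 0.242% of the neighbours of the other regions with at least 60% and 0.461% and 0.366% of those that started at 60 to 70%. A region with at most 10% methylation in WT, such as an unmethylated promoter or island, lay within 5 kb of 155 CD11b+ regions (13.6%) and 187 CD4+ regions (17.3%), against 10.9% and 11% of the other regions at the same WT level.

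Every autosome contributed. Chosen regions made up 0.248% (chromosome 7) to 0.408% (chromosome 11) of the regions with a WT mean of at least 60% in CD11b+ cells, and 0.147% (chromosome 12) to 0.268% (chromosome 11) in CD4+ T cells. On the X chromosome, outside the rule, 8 regions of each cell type met the same thresholds.

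The other cell type served as a reading that the choice had not used. A row of the CD4+ table overlapped 1103 of the 1138 CD11b+ regions. There the WT mean had a median of 74.1%, the Dnmt3a R878H/+ mean a median of 38.5%, and the loss a median of 33.1 points (3.33 to 66.6). The loss was above 20 points in 998 of them (90.5%), against 7.59% of the rows that overlap the other CD11b+ regions with a WT mean of at least 60%, and against 6.17% of all autosomal rows of the CD4+ table. Of the rows overlapping other CD11b+ regions that started at 60 to 70%, 29.4% lost more than 20 points, with a median of 15.1. In none of the 1103 was the Dnmt3a R878H/+ mean the higher one. The row read was the one with the largest overlap, however short. Where it covered at least 50% of the region, 899 of 985 lost more than 20 points (91.3%), against 8.13% for the other regions with at least 60%.

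The reverse reading, of regions chosen in CD4+ cells in the CD11b+ table, gave the same picture at lower levels. A row overlapped 991 of the 1080, with a median of 55.7% in WT cells, 22.8% in Dnmt3a R878H/+ cells and a median loss of 29.8 points (-3.11 to 64.2). The loss was above 20 points in 843 (85.1%), against 9.85% of the rows overlapping the other CD4+ regions with a WT mean of at least 60% and 6.95% of all autosomal rows of the CD11b+ table. At the same WT level, 26.7% of the rows lost more than 20 points, with a median of 14.4. Where the row covered at least 50% of the region, 734 of 845 lost more than 20 points (86.9%), against 10.9%. The one row with a higher Dnmt3a R878H/+ mean shared a single base with its region, and of the 845 there was none. Different mice or the same mice may have given both cell types, which the labels do not say, and the tables share the genotype contrast. By the study's methods, splenic T cells were isolated after CD11b+ cells had been taken out. If the same spleens gave both, the readings of the cell types are not independent.

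Although the loss was shared, the region was chosen in both cell types in a minority of cases, more often than among other regions. A region chosen in the other cell type overlapped 177 of the CD11b+ regions (15.6%) and 176 of the CD4+ regions (16.3%). By the row with the largest overlap the shares were 15% and 16.3%, against 0.594% and 0.93% of the other regions that started at 60 to 70%. Over all autosomal regions with an overlapping row they were 0.399% and 0.458%. The 2 directions missed on different sides. Of the 1103 CD11b+ regions with a CD4+ row, 788 (71.4%) kept at least 60% in WT there but stayed above 30% in the mutant. The share was higher elsewhere, 81.2% for other CD11b+ regions that started at 60 to 70% and 87.9% for all autosomal regions with a CD4+ row. Of the 991 CD4+ regions with a CD11b+ row, 558 (56.3%) had at most 30% in the mutant there but under 60% in WT. Here other regions had lower shares, 16.7% of those that started at 60 to 70% and 8.74% of all autosomal regions with a CD11b+ row.

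**Figure D3:**
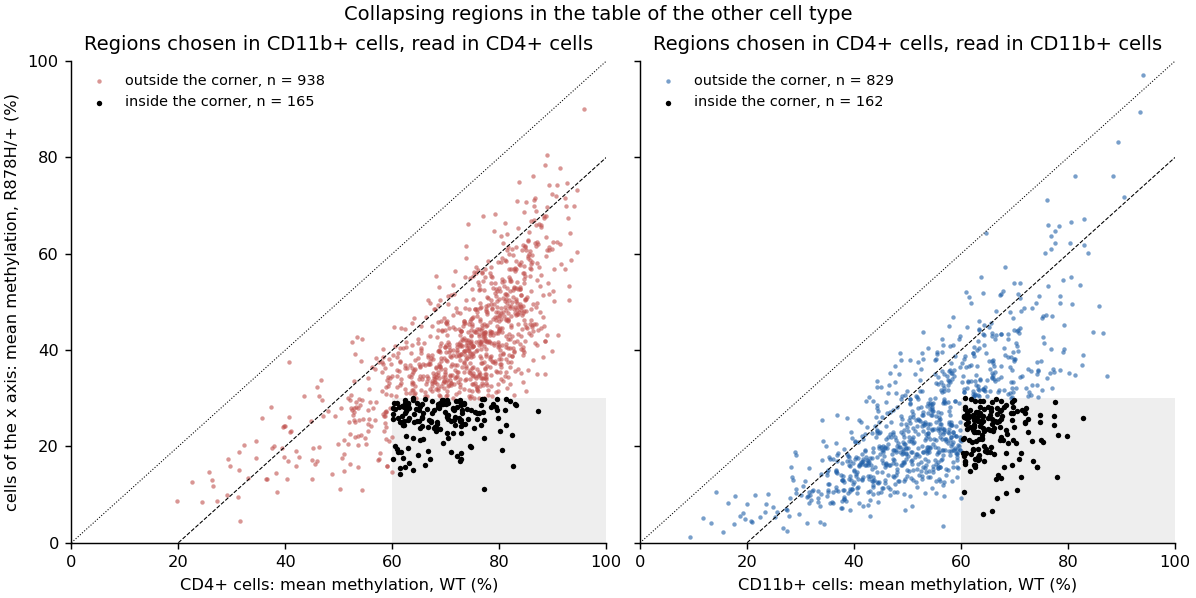
WT (x axis, %) and Dnmt3a R878H/+ (y axis, %) means of the overlapping row in the other cell type, for regions chosen in CD11b+ cells and read in CD4+ T cells (left) and the reverse (right). The shaded corner is the rule, black points lie inside it (165 and 162), the dotted line marks equal methylation and the dashed line a loss of 20 points, below which lie 998 of 1103 and 843 of 991 points.

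Regions shared by the cell types had more CpGs than the rest, again as a description with no test. The CD11b+ regions that overlap a CD4+ region had a median of 3.27 CpG sites per 100 bases and 12 sites, and the others had 2.51 and 10. For CD4+ regions the densities were 3.49 and 2.62. An island was overlapped by 14.1% of the shared and 5.72% of the other CD11b+ regions, and by 14.8% and 8.63% of the CD4+ regions. A promoter was the place of 19.8% and 12.1% in CD11b+ cells and of 21.6% and 17.5% in CD4+ T cells.

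The 10 shared loci with the largest losses are named by the gene they overlap or, between genes, by the nearest start. Across the start of Hoxa5, a homeobox transcription factor of the Hoxa cluster, the region chr6:52203675-52204998 held 8.69 CpG sites per 100 bases and fell from 77.9% to 13.7% in CD11b+ cells, and chr6:52204300-52204768, inside it, fell from 84.3% to 21.02% in CD4+ T cells. The CD4+ row that covers more of it, which was not chosen, had 85.7% and 45.3%. In an exon of Mex3a, which encodes an RNA-binding protein, methylation went from 65.9% to 6.68% in CD11b+ cells (chr3:88536361-88536875) and from 77.2% to 11.2% in CD4+ T cells (chr3:88536350-88536954). Between genes, 5651 bases from the start of Ddx6, an RNA helicase of processing bodies, it went from 71.2% to 13.7% and from 82.5% to 15.9%. The printed sequences of the Mex3a and Ddx6 regions show how closely the CpGs stand.

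At Arhgef18, which encodes a guanine nucleotide exchange factor, both tables listed the same 800 bases over a promoter (chr8:3392677-3393476), with 66.7% and 9.25% in CD11b+ cells and 82.4% and 22.3% in CD4+ T cells. The locus 35612 bases from the start of Mycn, a Myc-family transcription factor, had 74.2% and 15.7% in CD11b+ cells and 77.1% and 21.7% in CD4+ T cells. An exon of Tmem98 had 78.1% and 22.3%, and 72.8% and 17.4%. Runx1 and Runx3, transcription factors of blood stem cells and T cells, were both among the 10. The Runx1 region (chr16:92699512-92700444), 2184 bases from a start, went from 74.1% to 15.7% in CD11b+ cells and its counterpart from 83.1% to 28.5% in CD4+ T cells. The Runx3 region (chr4:135154894-135155368), which overlaps an island, went from 77.4% to 24.5% and from 74.5% to 20.2%. A locus 59726 bases from Smad7, an inhibitor of TGF-beta signaling, had 75.3% and 20.9% in CD11b+ cells and 87.3% and 27.3% in CD4+ T cells, and one 71295 bases from Zfp281, a zinc finger factor, had 74.9% and 21.4%, and 80.5% and 19.3%. WT methylation was the higher one in CD4+ cells at 8 of these 10 loci, all but Tmem98 and Runx3. This direction was not particular to them. The median WT mean of all CD11b+ regions was 64.5% and that of their CD4+ rows 74.1%. All CD4+ regions had 64.4% and their CD11b+ rows 55.7%.

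The largest loss of all in CD11b+ cells lay 2993 bases from the start of Gata2, which encodes a transcription factor of blood stem cells, at chr6:88190451-88190898 over an island. The WT mean was 90.8% and the mutant mean 25.5%, and the CD4+ row had 88.6% and 35.01%, so that the CD4+ row missed the rule on the mutant level. After Hoxa5 came a region 8583 bases from Lsm4, a subunit of the complex that binds U6 RNA (75.2% to 11.6%), one at G0s2, an inhibitor of fat breakdown (82.1% to 18.5%), and one at Gdf1, a TGF-beta family ligand that shares its transcript with the ceramide synthase gene Cers1 (76.0% to 12.9%). The CD4+ rows of these 3 stood at 32.2%, 30.1% and 35.9% in the mutant, a little above the limit. In CD4+ cells the 5 largest losses were at Ddx6, Mex3a, Hoxa5, Cuedc1 (80.9% to 18.3%) and Zfp281, each of which overlapped a chosen CD11b+ region. The regions at G0s2 and Cuedc1 held 10 counted cytosines, the minimum, and that at Gdf1 held 12, which are 19.35% of its cytosines.

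The regions with the most counted cytosines were either long with a loss near the median or dense in CpGs with a larger loss. In CD11b+ cells they were Hoxa5 (97 cytosines), Insl3 (84, 66.1% to 28.8%, next to Jak3, a kinase of cytokine receptors), Bcl6b, a zinc finger repressor (81, 68.8% to 29.8%), a region 8974 bases from Btn2a2 (69, 62.5% to 24.3%) and Gfi1. Gfi1 encodes a zinc finger repressor that directs granulocyte formation. Its region (chr5:107720934-107722325) fell from 81.5% to 21.2%, with 62 counted cytosines, 31.6% of those at its 98 CpG sites. In CD4+ cells they were Slc38a2, an amino acid transporter (67 cytosines, 66.1% to 29.8%), a region 25277 bases from Fzd9, a Wnt receptor (64, 72.6% to 17.0%), Adcy4, an adenylyl cyclase (62, 63.6% to 26.3%), Mex3a (60) and Ptgdr2, the prostaglandin receptor of type 2 helper T cells (59, 70.4% to 25.7%).

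A few regions changed in one cell type with little change in the other. The overlapping row lost under 10 points at 9 of 1103 CD11b+ regions and 17 of 991 CD4+ regions. Some of these rows only touched the region, and where they covered at least 50% of it the numbers were 4 of 985 and 10 of 845. In CD11b+ cells, a region in Cyth1, a regulator of ARF GTPases, fell from 61.2% to 28.4%, and the CD4+ row, which covered 60.9% of its bases, had 40.8% and 37.4%. A region near Klf5 fell from 63.9% to 24.5%, and the CD4+ row over 50% of its bases had 88.9% and 80.5%. Near Fndc1 the CD4+ region fell from 62.0% to 24.9%, and the CD11b+ row over 68.1% of its bases had 64.7% and 64.2%. These regions held 10 to 12 counted cytosines, at or near the minimum of the table. At Lrrc1 and Rhbdl2 (CD11b+) and at Rassf2 (CD4+) the row shared 1, 29 and 1 bases with the region, so the other cell type is in effect not read there.

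Others were already low in the WT cells of the second type. The CD4+ region at Gse1 fell from 70.6% to 18.9%, and the CD11b+ row, over 49.3% of its bases, had 9.39% and 1.14%. Near Fam91a1 (66.9% to 23.3%), in Sgms1, which encodes a sphingomyelin synthase (61.0% to 17.6%), in Dusp1, a phosphatase that switches off MAP kinases (60.9% to 24.2%), and near Ptpn1 (67.7% to 25.3%), the WT mean of CD11b+ cells was between 11.8% and 15.5%. In the other direction, the CD11b+ region in Kcnn4, a calcium-activated potassium channel, with 30 CpG sites, fell from 79.6% to 24.97%, and the CD4+ row had 22.5% and 12.5%. The CD11b+ region in Gabbr2 fell from 63.0% to 18.2% with 19.8% and 8.62% in CD4+ cells, and the one in Tmcc3 from 65.2% to 27.0% with 24.4% and 8.45%. The CD4+ row in Tmcc3, chr10:94523859-94523986, covers only a part of that region. A WT mean under 30% in the other cell type was found for 10 CD11b+ (0.907%) and 36 CD4+ regions (3.63%). Other regions that started at 60 to 70% had 1.44% and 2.72%, and all autosomal regions with an overlapping row 3.28% and 3.81%. Such cases were thus not particular to the set.

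A protein-coding gene body was overlapped by 718 CD11b+ regions and 618 CD4+ regions. This touched 641 genes in CD11b+ cells, 3.75% of the 17109 genes with a listed region, and 572 genes in CD4+ T cells, 3.21% of 17822. Touched in both were 183 genes, which are 28.5% of the CD11b+ and 32% of the CD4+ genes. Of all genes in the 16 lists described next, 31 of 429 (7.23%) held a region in CD11b+ cells and 34 of 438 (7.76%) in CD4+ T cells. The lists were chosen with results of these data known and hold genes of unequal length, and longer genes hold more listed regions, so the counts are descriptions.

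Transcription factors of blood formation were the lists with the highest counts. Of 14 RUNX and ETS factors, 7 held a region in each cell type (50%), against 3.75% and 3.21% of all genes. Runx1, Runx2, Runx3, Etv6, Elk3 and Elf1 did in both, Ets1 in CD11b+ cells and Erg in CD4+ T cells. Runx1 held 3 CD11b+ regions, one of them 50 bases from a start and falling from 84.5% to 27.0%. Elf1, an ETS factor of lymphoid and myeloid cells, held 3 CD11b+ regions, among them chr14:79486664-79486892 with 68.4% and 9.18% over 10 counted cytosines. In Erg, an ETS factor of stem cells, the CD4+ region fell from 68.3% to 22.8% and the CD11b+ row from 53.5% to 16.0%.

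Of 24 GATA, TAL and stem-cell factors, 7 held a region in CD11b+ cells (29.2%) and 9 in CD4+ T cells (37.5%). All genes had 3.75% and 3.21%. Gata3, Mecom, Hlf and Prdm16 were among those in both. Kit, the stem cell factor receptor, and Gfi1 were added in CD11b+ cells, and Gata2, Lmo2, Hmga2 and Egr1 in CD4+ T cells. Mecom, a zinc finger factor that keeps stem cells dormant, held 3 regions in each cell type, and its longest, chr3:30510418-30512784, spanned 2367 bases and 40 CpG sites and fell from 62.3% to 26.7% in CD4+ cells. Hmga2, a chromatin protein of fetal stem cells, held 2 CD4+ regions (72.8% to 28.3% and 67.6% to 21.5%), where the CD11b+ rows started at 58.6% and 53.4%. Kit had an intronic CD11b+ region (61.6% to 24.4%) whose CD4+ row had 69.8% and 34.9%.

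**Figure D4:**
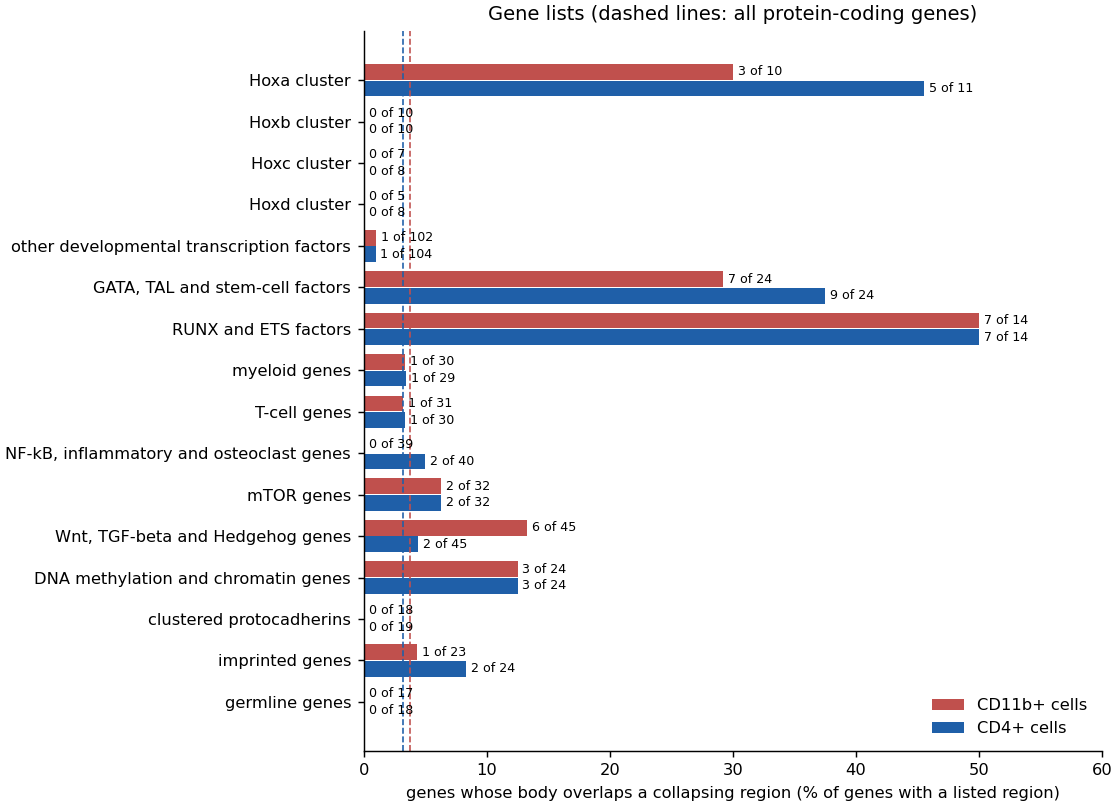
Share of the genes of each list (%) whose body overlaps a collapsing region, of the genes with a listed region, for CD11b+ cells (red) and CD4+ cells (blue), with the counts beside the bars. Dashed lines mark all protein-coding genes, 3.75% and 3.21%. RUNX and ETS factors, stem-cell factors and the Hoxa cluster have the longest bars, and the Hoxb, Hoxc and Hoxd clusters, protocadherins and germline genes have none in either cell type.

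Among Hox genes, which encode the homeobox factors that pattern the body axis and of which the Hoxa group is active in blood stem cells, gene bodies were overlapped in the Hoxa cluster. In CD11b+ cells 3 of 10 Hoxa genes were overlapped (Hoxa3, Hoxa5 and Hoxa7), and in CD4+ cells 5 of 11 (Hoxa3, Hoxa4, Hoxa5, Hoxa6 and Hoxa9). The Hoxa3 model of the annotation spans its neighbours, so regions at Hoxa4, Hoxa5 and Hoxa6 count for it too. Of Hoxb, Hoxc and Hoxd genes, 0 of 10, 7 and 5 were overlapped in CD11b+ cells and 0 of 10, 8 and 8 in CD4+ T cells. At the shares of all genes, 3.75% and 3.21%, lists of this size can hold 0. Between the genes of the Hoxb cluster, a CD11b+ region 1033 bases from Hoxb4 fell from 77.4% to 27.6%, and 3 CD4+ regions lay together between Hoxb4 and Hoxb5 (chr11:96309818-96315638).

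Around the Hoxa5 start, the chosen regions stood among others with a partial loss. Within 50 kb to each side, the CD11b+ table listed 65 regions, of which 5 were chosen, 27 had a WT mean of at least 60% and were not chosen, and 33 had less than 60%. The medians of the 27 were 90.1% in WT and 72.4% in mutant cells, and 10 of them lost more than 20 points. In CD4+ cells 81 regions were listed, with 5 chosen and 39 not chosen at 60% or more, for which the medians were 88.5% and 71.6% and 17 lost more than 20 points. The Hoxa5 region was the one place where the regions chosen in the cell types overlapped. A pair of CD11b+ regions at Hoxa3, chr6:52175310-52176792 and chr6:52177033-52177560, fell from 68.4% to 22.4% and from 84.3% to 22.4%, and a CD4+ row across parts of both had 88.5% and 41.9%. A second CD4+ row, inside the first of them, started just below the threshold with 57.2% and had 3.79% in the mutant. The CD4+ regions at Hoxa6 and Hoxa9 (68.2% to 27.2% and 60.4% to 23.4%) had CD11b+ rows that started at 47.7% and 36.1%.

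**Figure D5:**
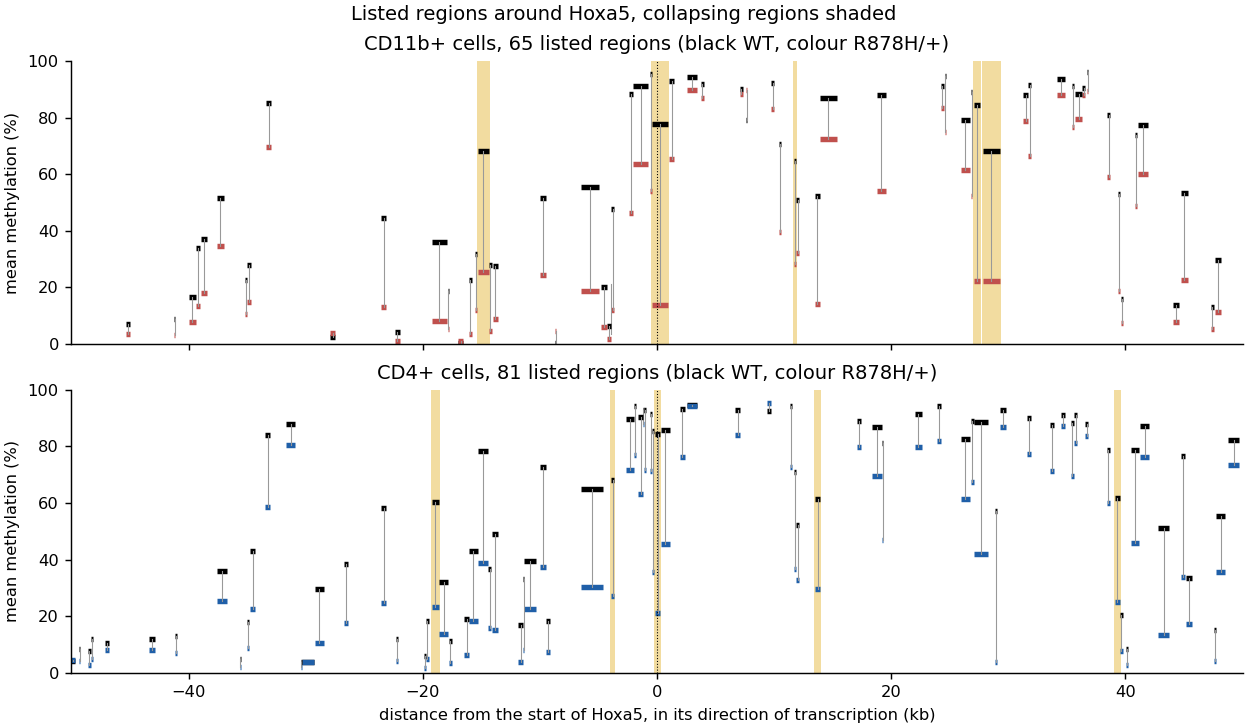
Mean methylation (y axis, %) of every listed region within 50 kb of the start of Hoxa5, by distance in its direction of transcription (x axis, kb), in CD11b+ cells (top, 65 regions) and CD4+ cells (bottom, 81 regions). Black bars are WT means, coloured bars Dnmt3a R878H/+ means, grey lines join the pair, and the 5 collapsing regions of each cell type are shaded. Between the shaded regions, bars near 90% in WT drop by less, to a median of 72.4% and 71.6%.

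Other developmental transcription factors, a list of homeobox, SOX, PAX and similar genes, held a region in 1 of 102 genes in CD11b+ cells (0.98%) and 1 of 104 in CD4+ T cells (0.962%). The gene was the same, Tfap2a, an AP-2 factor of neural crest and skin. Its promoter region (chr13:40735729-40735974) had the lowest mutant mean of the CD11b+ set, 5.98% from 64.1% in WT. The CD4+ region that overlaps it, chr13:40735862-40736175, fell from 69.5% to 20.7%. Each held 10 counted cytosines, the minimum, which in the CD4+ region were 25% of its cytosines. At Gbx2, within 1 kb of a start, the regions of both cell types overlapped with 69.3% and 27.0% in CD11b+ and 69.9% and 27.1% in CD4+ cells. Clustered protocadherins (18 and 19 genes) and germline genes (17 and 18 genes) held 0 in both. All genes had 3.75% and 3.21%, shares at which lists of this size can hold 0. Within 5 kb of 8 clustered protocadherins, a CD4+ region (chr18:37842432-37843553) fell from 75.3% to 28.8%.

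Genes of the lineages themselves held regions in 1 gene per list and cell type. Of myeloid genes, Prtn3, a neutrophil protease, was the 1 of 30 in CD11b+ cells (63.8% to 27.9%) and Csf1r, the receptor of macrophage colony-stimulating factor, the 1 of 29 in CD4+ T cells (78.6% to 25.7%). At Csf1r the CD11b+ row had 43.0% in WT and 8.87% in the mutant. Of T-cell genes, Gata3, the factor of type 2 helper T cells, was the 1 of 31 in CD11b+ and the 1 of 30 in CD4+ cells, with separate regions. Its CD11b+ regions fell from 65% to 21.3% and from 67.0% to 24.9%, and its CD4+ region from 64.6% to 26.7%. These shares of 3.33%, 3.45%, 3.23% and 3.33% lie near the background of all genes.

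The study also followed inflammation, osteoclasts and mTOR signaling. Of NF-kB, inflammatory and osteoclast genes, 0 of 39 held a region in CD11b+ cells and 2 of 40 (5%) in CD4+ T cells. These 2 were Nfatc1, the master factor of osteoclasts (60.1% to 27.1%), and the kinase gene Src (61.8% to 25.5%). All genes had 3.75% and 3.21%, so counts this small lie near that share. Within 5 kb of a gene, Nfkbia, the inhibitor of NF-kB (68.6% to 28.6%), and Fosl2 (64.5% to 25.04%) were added in CD11b+ cells. Of 32 mTOR genes, 2 held a region in each cell type (6.25%, against 3.75% and 3.21% of all genes). Pik3r1, the regulatory subunit of PI3 kinase, and Eif4ebp1, the translation repressor that mTOR phosphorylates, did in CD11b+ cells. Pik3r1 and Eif4e, the cap-binding factor that this repressor holds, did in CD4+ cells. The Eif4ebp1 region fell from 62.1% to 25.3% with a CD4+ row of 78.7% and 48.6%, and the Eif4e region from 65.6% to 21.1% with a CD11b+ row of 38.1% and 9.03%. Near Sesn2, a stress-induced inhibitor of mTOR, overlapping regions fell from 62.5% to 17.4% in CD11b+ and from 73.2% to 24.6% in CD4+ cells.

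Of 45 Wnt, TGF-beta and Hedgehog genes, 6 held a region in CD11b+ cells (13.3%) and 2 in CD4+ T cells (4.44%). The shares of all genes were 3.75% and 3.21%. Wnt10a, a ligand, and Smad6, an inhibitory Smad, were the genes of both. The ligand gene Tgfb3 (69.1% to 28.5%), the receptor genes Tgfbr3 (67.3% to 19.2%) and Ptch1 (66.2% to 27.7%) and the inhibitor gene Smad7 (60.9% to 26.3%) were added in CD11b+ cells. Of 24 DNA methylation and chromatin genes, 3 held a region in each cell type (12.5%). Tet3, which oxidizes methylcytosine, held overlapping regions (68.4% to 18.5% in CD11b+ and 74.0% to 27.8% in CD4+ cells). Kdm2b, a histone demethylase that binds CpG islands, held separate ones, and Hdac7 in CD11b+ and Bmi1 in CD4+ cells were the others. Imprinted genes, some stretches of which carry methylation on one parental copy, held a region in 1 of 23 genes in CD11b+ cells (4.35%). It was Plagl1 (69.3% to 25.9%, with 57.4% and 17.2% in CD4+ cells). In CD4+ T cells 2 of 24 (8.33%) did, Kcnq1 (81.3% to 27.6%) and Dlk1 (67.6% to 23.8%).

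Genes with 3 or more regions in a cell type were 25. Fgfr2 (5 in CD11b+ and 3 in CD4+ cells), Mecom (3 and 3), Hoxa3 (4 and 3) and Nfix (3 and 4) reached 3 in both, as did the read-through models Gm20388 (8 and 6) and Gm28308 (4 and 4), which span many genes. The Fgfr2 model of this annotation spans other genes too, among them Tacc2, whose regions count for both. Adgrg1, Sox5, Foxp1, Dnmbp, Elf1, Gse1, Hlf, Runx1, Ahi1, Cmip, Tacc2 and Vps37b were among those that reached 3 or 4 in CD11b+ cells, and Igf1r, Zmiz1, Atg7, Slc2a3, Ext1 and Maml3 reached 3 in CD4+ T cells. Length differed widely, from 27.6 kb for Vps37b to 2960.9 kb for the Fgfr2 model and 4434.9 kb for Gm20388, and Fgfr2 had 700 listed regions in CD11b+ cells against 21 for Adgrg1.

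Most collapsing regions had no other within 5 kb. Another chosen region lay within 5 kb of 79 CD11b+ regions (6.94%) and 53 CD4+ regions (4.91%). The densest group was in Adgrg1, an adhesion receptor of stem cells, natural killer cells and some T cells, with 4 CD11b+ regions within chr8:94990004-94999660. They fell from 61.9% to 28.4%, 61.1% to 23.6%, 71.9% to 29.0% and 61.5% to 21.2%, and the CD4+ rows over them lost between 24.95 and 35.6 points. Hlf, a leucine zipper factor of blood stem cells, held 3 CD11b+ regions in introns at chr11:90376398-90382271. They fell from 63.6% to 22.2%, 65.05% to 29.9% and 69.6% to 29.7%. The CD4+ rows that overlap them had WT means of 75.9% to 81.7% and mutant means of 40.5% to 51.5%, with losses of 27.97 to 41.2 points from a higher level.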

How the data were processed

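The data are WGBS of spleen CD11b+ and CD4+ cells, each from 4 mice of either genotype (WT and Dnmt3a R878H/+). The authors mapped reads to mm10 with BISCUIT and compared the genotypes with metilene, which divides the genome into regions and lists each with the mean of both groups. Versions, command-line settings and a coverage minimum are not given in the sources used here. The study's criteria for a differentially methylated region (number of CpGs, difference and FDR) were not applied here, and the tables also list smaller differences. The deposited tables hold these group means in percent, the number of cytosines counted and the authors' own differences, p-values and q-values, of which the last 3 were not used. There were 0 columns of single mice, and the tables give no depth per region (the study states a target coverage of the sequencing), so no test over mice and no interval was possible.

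The coordinates were checked against the mm10 sequence. All regions on assembled chromosomes started and ended on a CpG cytosine when the start was counted from 0, and 1 was added to each start. The count of cytosines exceeded the number of CpG sites in 86.3% of CD11b+ and 92.4% of CD4+ regions and never exceeded 2 per site, so both strands are counted, and CpG sites were therefore recounted from the sequence. Rows on sex chromosomes, mitochondrial DNA and unplaced scaffolds were left out. Genes came from GENCODE release M21 (protein-coding), a promoter was the sequence up to 1 kb on either side of a start, and islands were 500-base windows with a GC content of at least 55% and an observed to expected ratio of at least 0.65. In the other cell type, the row with the largest overlap was read, and, as an alternative chosen after seeing the data, only rows covering at least 50% of the region. Sequences were read from GRCm38 on the + strand, as the central 300 bases of the longest stretch without an annotated UTR. A few gene names and 1 sequence are not reported here.

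The regions, gene lists and comparisons were chosen with earlier results of these data known. Regions were named by rank of loss, of counted cytosines and of change in the other cell type, by nearness to a threshold, by genes with at least 3 regions and by the gene lists, and the genes singled out within a list were chosen after their values were seen. Interval functions were tested on simulated data. Python 3.11.15, numpy 2.4.6, pandas 2.3.3 and matplotlib 3.10.9 were used.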

Additional observations from a re-analysis of the deposited data

How the results depend on the processing

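The number of regions followed the thresholds. As a percentage of the number reported, it was 2.109% (24 regions) in CD11b+ and 2.593% (28 regions) in CD4+ cells with at least 70% in WT and at most 20% in Dnmt3a R878H/+ cells, and 1167% (13280 regions) and 1220% (13178 regions) with 50% and 40%. At least 20 counted cytosines were held by 17.05% and 19.07% of the regions, and with sex chromosomes there were 1146 and 1088. Where the overlap had to cover 50% of both rows, the median loss in the other cell type was 34.1 points for CD11b+ and 31.55 for CD4+ regions, and the share overlapping a chosen region was 10.28% and 10.83%. The median number of counted cytosines of both strands per 100 bases was 3.354 and 3.653. At 2 cytosines per CpG site this is 1.677 and 1.826 sites, below the 2.60 and 2.74 of the sequence. Under the wider thresholds the median number of CpG sites per 100 bases was 2.053 and 2.09. With promoters of 2 kb, they held 20.21% and 26.02%. A region of low WT methylation lay within 2 kb of 7.996% and 11.2%, within 10 kb of 20.39% and 22.59%, and within 5 kb of 22.23% and 25.28% when 20% counted as low. The overlap-weighted loss was 32.7 and 29.62 points. The loss in rows covering at least 50% of the region, an alternative chosen after seeing the data, was 33.27 and 29.95. Both stayed within the spread or factor set for a change. Genes within 5 kb of a region numbered 798 and 806, against 641 and 572 overlapped by one. This rise, which reversed the order of the cell types, was still within the factor set for a change.

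A threshold on the authors' q-values was not run, since those columns were not used. No paired analysis was possible because the tables hold group means and no value per mouse, and no mouse was left out for the same reason. Unknown errors of the means and the reading of the first group as WT limit every statement.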

Other observations

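The base that follows the CpG differed between collapsing and other regions. In the collapsing regions, 31.6% of 13293 CpG sites in CD11b+ cells and 30.7% of 12657 in CD4+ cells were followed by G on the + strand, and 24% and 24.2% by T. In the other regions that started at 60 to 70%, G followed 27.6% and 27.2% and T followed 28.6% and 28.9%. C followed 25.6% in both collapsing sets against 21.2% and 20.8%. GC content was also higher in the collapsing regions, and its part in these shares was not tested.

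The X chromosome, which the rule leaves out, held 8 regions of each cell type that met the thresholds, of 3208 and 4402 with a WT mean of at least 60%. The Y chromosome held 0 of 24 and 0 of 28.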
